A study of Sus scrofa with 3 samples.

Results

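The genes described here encode the proteins of the cytosolic ribosome. They were taken by name, as the genes of type mRNA whose symbol is RPL or RPS followed by a number, with the usual suffixes, or is RPLP0, RPLP1, RPLP2 or RPSA. The rule found 69 of 22826 mRNA genes, 42 for the large subunit and 27 for the small subunit. It used no measured value, and genes held under other names are treated apart. Of these 69 genes, 63 were above 0 in all 3 libraries and 6 were listed at 0 in all 3. None was at 0 in only some of the libraries, so 63 genes carry every ratio given here.

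The tissue was retroperitoneal fat, used as visceral fat, of male Chinese Wuzhishan miniature pigs that were 6 to 7 months old at purchase. The IM group was left intact apart from a sham operation with skin incisions, the CM group was castrated, and the CMT group was castrated and given testosterone propionate at 10 mg per kg in corn oil by intramuscular injection each week. All 3 groups were fed for 12 weeks on feed rich in fat and cholesterol (HFC diet), so there was no group on a standard diet. Equal amounts of RNA from the pigs of a group were pooled, from 4 pigs by the methods of the study and from up to 6 by the sample labels, and 1 library was sequenced per group on an Ion Proton. No difference between groups therefore has a replicate check, no test of a condition was possible, and the spread between pigs is unknown. The questions addressed are how castration differed from the intact state (CM versus IM), how testosterone replacement differed from castration alone (CMT versus CM), and whether replacement brought levels back to those of intact pigs (CMT versus IM).

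A ribosome is built from a small subunit, which reads the mRNA, and a large subunit, which joins amino acids and lets the new chain leave through a tunnel. Nearly every protein is present as a single copy per ribosome, and cells make the set in matched amounts. The mRNAs begin with a pyrimidine-rich tract (TOP mRNAs) through which mTOR signalling controls their translation, and they are among the most abundant mRNAs of almost any tissue, fat included.

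Depth was similar in the 3 libraries, with 13449107 to 14844063 reads recovered on mRNA genes and 15106608 to 16611931 on all gene types. The summed level of 5 adipocyte markers in IM, CM and CMT was 113888, 106680 and 94551 UQRPKM. UQRPKM is reads per kilobase of gene scaled by the library's upper quartile, so it allows levels to be set between genes. Markers of other tissues also differed between libraries. The sum of 8 skeletal muscle markers was 82.3, 68.3 and 6130 UQRPKM in IM, CM and CMT, and that of 8 liver markers was 2555, 8822 and 1735. APOA1 made up most of the liver sum in IM and CMT, and the other 7 liver markers summed to 15.8, 6484 and 21.1 UQRPKM, so the CM library stood far apart in them. The sums of 5 macrophage and 6 lymphocyte markers were 830, 839 and 711 and 401, 293 and 349, with single markers that differed more. The macrophage marker EMR1 was at 45.6, 93.6 and 30.6 UQRPKM, CD163 was at 0, and the cytotoxic cell gene GZMH was at 62.2, 6.39 and 4.83. The part of these other cell types in the results below was not tested, and in pooled tissue a change in the number of cells of one type and a change of RNA per cell cannot be told apart.

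Ribosomal protein genes stood near the top of every library. Their median level in the IM, CM and CMT libraries was 11435, 12507 and 14041 UQRPKM, taken over the 63 genes above 0. The median over all 22826 mRNA genes, with those at 0 included, was 12.04, 12.08 and 12.03 UQRPKM. Among all mRNA genes, the median ribosomal protein gene lay at the 99.6th percentile in IM and the 99.7th in both other libraries, and the lowest one above 0 at the 84.9th, 86.5th and 87.3th. Of the 100 mRNA genes with the highest level, ribosomal protein genes made up 39, 42 and 44. Levels of at least 10000 UQRPKM were found for 40, 44 and 47 of them.

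Genes of both subunits were among those with the highest mean level. RPS20 and RPS15, which lie in the head of the small subunit, were at 35626, 37869 and 43355 UQRPKM and at 36227, 39195 and 34358 UQRPKM in IM, CM and CMT. RPS15 was lowest in the CMT library and RPS20 highest there. RPLP2, an acidic protein of the stalk that draws translation factors to the large subunit, was at 35257, 34402 and 41959 UQRPKM. RPL35, at the exit of the peptide tunnel, was at 33203, 36054 and 39558. Among the ribosomal protein genes, the single highest value of any library was that of RPS27, a zinc-binding small subunit protein, at 45106 UQRPKM in CMT. RPS27 was at 28492 and 33091 in IM and CM, and it was the 6th most abundant mRNA gene in the CMT library.

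**Figure D1:**
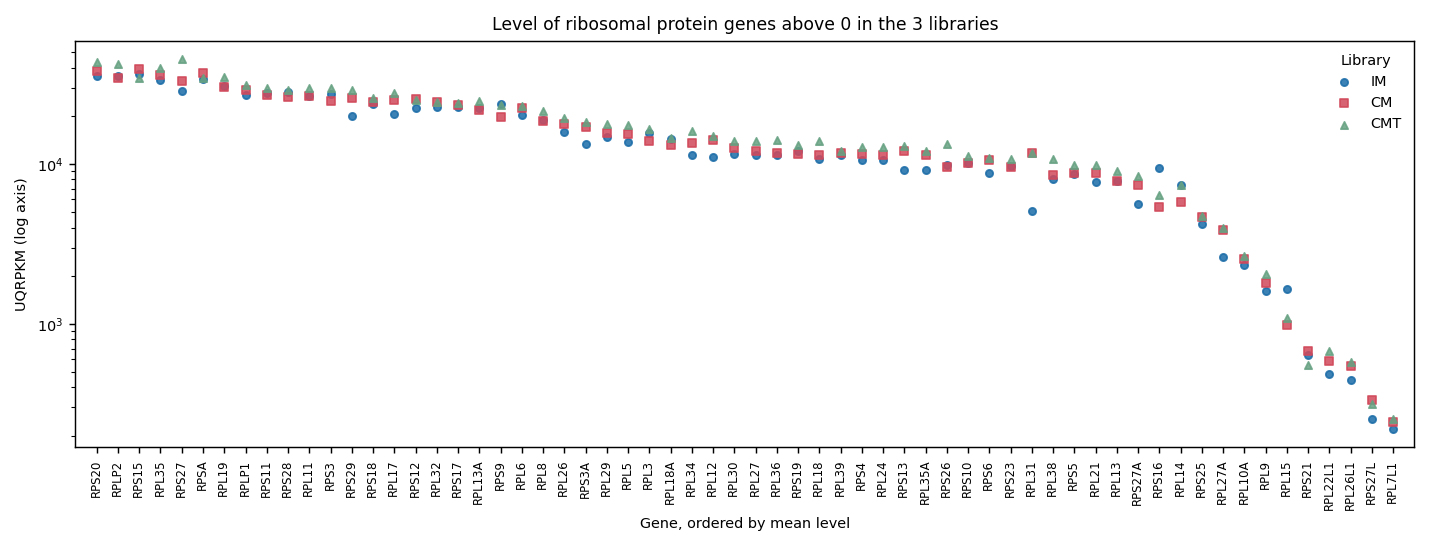
Level of 62 ribosomal protein genes above 0, in UQRPKM on a log axis, ordered from the highest to the lowest mean, with 1 point per library (IM circles, CM squares, CMT triangles). The points of a gene mostly lie close together against a range between genes of over 100-fold, in IM from RPS15 at 36227 UQRPKM to RPL7L1 at 222, and RPL31, RPS16 and RPL15 show the IM point apart from the other 2.

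Although a ribosome needs each protein once, mRNA levels were far from equal. The highest gene exceeded the lowest above 0, the paralog RPL7L1, by 161-fold in the CM library and 177-fold in the CMT library. RPL7L1 is not one of the standard proteins. The lowest standard one, RPS21, was at 680 and 553 UQRPKM in CM and CMT, against highest values of 39195 (RPS15) and 45106 (RPS27). The middle part of the set was tighter, with an upper to lower quartile ratio of 2.73, 2.79 and 2.49. The order of the genes was nearly the same in every library, as Spearman's rho between levels over the 63 genes was 0.975 for IM and CM, 0.978 for IM and CMT and 0.988 for CM and CMT. These are descriptions over genes, which share gene models and mapping across libraries. Levels were lower for genes with a greater length, as implied by the values, with a rho of -0.38, -0.41 and -0.40 in IM, CM and CMT. Reads are divided by this length to give UQRPKM, so level and length are not independent measures here. The longest such length was 4470 bases, for RPL10A, a large subunit protein at 2348, 2555 and 2670 UQRPKM. Paralogs included, small subunit genes had a median of 13325, 17058 and 18395 UQRPKM, against 11386, 12273 and 13958 for large subunit genes above 0. The small subunit median was thus 1.17, 1.39 and 1.32 times the large subunit one.

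At the lower end were 4 paralogs and RPS21. RPS21, a standard small subunit protein, was at 638, 680 and 553 UQRPKM in IM, CM and CMT. RPL22L1 was at 485, 581 and 676, and RPL26L1 at 448, 544 and 575. RPS27L, known as a p53-inducible gene, was at 255, 333 and 315 UQRPKM, and RPL7L1 at 222, 243 and 255. The paralogs were small beside their parents where the parent was measured, since RPL26 was at 15835, 17642 and 19286 UQRPKM and RPS27 at the levels above. RPL3L, the form of RPL3 that replaces it in striated muscle, was listed at 0 in every library, including CMT, in which the muscle markers were highest. Its parent RPL3 was at 15640, 13804 and 16541 UQRPKM. RPL10L, found under a locus name, was at 1220, 1210 and 1524 UQRPKM, while RPL10 was listed at 0. RPL22 was not analysed here, so RPL22L1 has no parent to compare with. The gene listed as RPS4, an older name of the X-linked RPS4X, was at 10582, 11466 and 12836.

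The 6 genes listed at 0 were all large subunit genes, namely RPL7, RPL10, RPL23, RPL36A, RPL37 and RPL3L. Of the ribosomal protein genes 8.70% were at 0 in all libraries, against 26.2% of mRNA genes (5990 genes). Apart from RPL3L, these 5 proteins are parts of every ribosome. A listing at 0 can be a failed estimate in such a file and is given here as a listing only. Other genes that all cells use were also at 0. GNB2L1, which encodes the small subunit scaffold RACK1, was one of them, as were EIF6, which keeps free large subunits from joining small ones, and RRN3, an initiation factor of RNA polymerase I. A value of 0 was also given for 6 of 43 proteasome genes and 2 of 61 mitochondrial ribosomal protein genes.

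A standard ribosome set of 79 names, with FAU but without RACK1, was used to account for the missing proteins. Of these names, 59 were genes above 0 and 5 were genes at 0. Another 6 were found under a locus name through their RefSeq gene ID. These were RPL4 at 16167, 17330 and 18665 UQRPKM in IM, CM and CMT, RPLP0 at 12149, 12371 and 13116, RPS7 at 29474, 30866 and 35425, RPS24 at 10221, 12732 and 13927, RPL23A at 2900, 6548 and 8397, and RPS15A at 0. FAU, which makes a ribosomal protein fused to a ubiquitin-like part and lies outside the rule, was at 8062, 8028 and 8912 UQRPKM, within the range of the genes found by the rule. The other names are not described here.

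Together the 63 genes took 966255 of the 14844063 mRNA reads in IM, or 6.51% (exact 95% Clopper-Pearson interval 6.497 to 6.522). In CM they took 7.07% (7.057 to 7.085) and in CMT 8.16% (8.148 to 8.177). The intervals cover counting error only, since reads without molecular identifiers are not independent molecules and the spread between pigs is not in them. By this measure the share was lowest in IM and highest in CMT. Reads on rRNA genes were in the opposite order, at 502761, 368029 and 337783 in IM, CM and CMT, and their part in the share was not tested. As a share of the summed UQRPKM of mRNA genes, which counts short genes for more, the values were 15.3, 16.4 and 18.5%. The 10 genes with the most reads held 34.6, 32.8 and 33.5% of the reads of the set, and small subunit genes held 47.0, 46.4 and 46.0%. Summed reads of the set, scaled by the upper quartile, gave a log2 ratio of 0.061 (counting interval 0.057 to 0.065) for CM versus IM, 0.15 (0.15 to 0.16) for CMT versus CM and 0.21 (0.21 to 0.22) for CMT versus IM.

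Most ribosomal protein genes were slightly higher in the CMT library. That library held the highest value for 54 of the 63 genes, the CM library for 6 and the IM library for 3. Of the 14814 mRNA genes above 0 in all 3 libraries, 28.5% were highest in CMT. The lowest value lay in IM for 42 genes, in CM for 19 and in CMT for 2. These 3 comparisons share libraries, so they are not independent of each other.

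Between CM and IM the median log2 ratio was 0.11 over the 63 genes, a fold of 1.08, against -0.06 over the 14123 mRNA genes tested, those at 1 UQRPKM or more in each library of the comparison. Of the ribosomal protein genes 44 were higher in CM by any size, while 43.2% of all tested genes were. The counting interval lay above 0 for 39 genes, below 0 for 13 and included 0 for 11. At 1.5-fold or more, 1 gene was higher in CM, where the background is 8.38%, and 2 were lower, where it is 10.4%. Scaled by total mRNA reads in place of the upper quartile, 2 were higher and 2 lower. The background percentages hold for upper quartile scaling only and are no measure for these last counts.

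RPL31 was the gene that was higher. This protein of the large subunit sits by the tunnel exit. It had 3979, 8716 and 9017 reads in IM, CM and CMT, or 5087, 11691 and 11764 UQRPKM. The log2 ratio of CM to IM was 1.20 (95% counting interval 1.15 to 1.26), and its level in CMT was close to that in CM. The genes that were lower were RPS16 and RPL15. RPS16, a small subunit head protein with a tail that reaches the tRNA in the decoding centre, was at 9464, 5406 and 6402 UQRPKM, with a log2 ratio of -0.81 (-0.86 to -0.75). With the reads of its locus-named copy added, this call ended, at -0.00. RPL15, a core protein of the large subunit, was at 1658, 983 and 1080 UQRPKM, with a log2 ratio of -0.75 (-0.83 to -0.68). Taken without copies, all 3 genes had the IM library farthest from the others. RPS16 was also higher in CMT than in CM, at 0.24 (0.19 to 0.30). With the copy's reads added to RPS16, IM and CM lay together and CMT stood apart, at 0.27 against either.

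Next farthest from the median were RPL27A and RPL14. RPL27A, a large subunit protein, was at 2634, 3841 and 3980 UQRPKM, with a log2 ratio of 0.54 (0.50 to 0.59). RPL14, also of the large subunit, was at 7339, 5749 and 7404 UQRPKM with a ratio of -0.35 (-0.40 to -0.30). For RPL14 it was the CM library that stood apart, and IM and CMT were nearly equal.

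Between CMT and CM the ratios were the most even of the 3 comparisons. The median log2 ratio was 0.16, a fold of 1.11, against -0.02 over 14098 mRNA genes. The ratio was above 0 for 57 of the 63 genes, against 47.3% of all tested genes, and the counting interval lay above 0 for 53 genes, below 0 for 3 and included 0 for 7. No ribosomal protein gene reached 1.5-fold either way, where 9.53% of all tested genes were higher and 9.97% lower. The log2 ratios of the set ran from -0.30 to 0.47.

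Both ends of that range belonged to small subunit genes. RPS26, which lies where mRNA leaves the ribosome, was at 9770, 9521 and 13214 UQRPKM in IM, CM and CMT, a log2 ratio of 0.47 (0.42 to 0.52) for CMT versus CM. RPS27 followed with 0.45 (0.42 to 0.47). RPS21 was at the low end with -0.30 and a wide interval (-0.48 to -0.11), as it had only 533 and 446 reads in CM and CMT. RPS15 had -0.19 (-0.22 to -0.16). RPSA, also known as a laminin receptor, was at 33838, 36733 and 34268 UQRPKM, a ratio of -0.10 (-0.13 to -0.07), so its highest value was in CM. The 36 large subunit genes above 0 all lay within 0.32 of their median, with log2 ratios from -0.00 to 0.37.

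Between CMT and IM the median log2 ratio was 0.22, a fold of 1.16, against -0.08 over 14151 mRNA genes. The ratio was above 0 for 58 of the 63 genes, while 42.0% of all tested genes were higher in CMT. The counting interval lay above 0 for 55 genes, below 0 for 5 and included 0 for 3. At 1.5-fold, 4 genes were higher in CMT (background 8.81%) and 1 was lower (background 11.9%). By total UQRPKM 4 were higher and 0 lower. By total mRNA reads, which shifts every log2 ratio of this comparison by 0.11, also those of the background genes, 8 were higher and 0 lower. The background is not given under these scalings, so these counts cannot be set beside it. The median of the set in CMT was thus farther from that in IM than the median in CM was.

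The higher genes were RPL31 with a log2 ratio of 1.21 (1.16 to 1.26), RPS27 with 0.66 (0.63 to 0.69), RPL27A with 0.60 (0.55 to 0.64) and RPS27A with 0.59 (0.54 to 0.64). With the reads of its locus-named copies added, RPL27A was at 0.22 and no longer called. RPS27A, a small subunit protein made as a fusion with ubiquitin, was at 5615, 7401 and 8437 UQRPKM. RPS27A and RPL27A lay just past the threshold, which is 0.58 on the log2 scale. The gene that was lower was RPL15, at -0.62 (-0.69 to -0.55). RPS16 was at -0.56 (-0.61 to -0.51), short of the threshold with a CMT level 0.676 times that in IM. RPS21 was the third lowest, at -0.21 (-0.39 to -0.02).

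**Figure D2:**
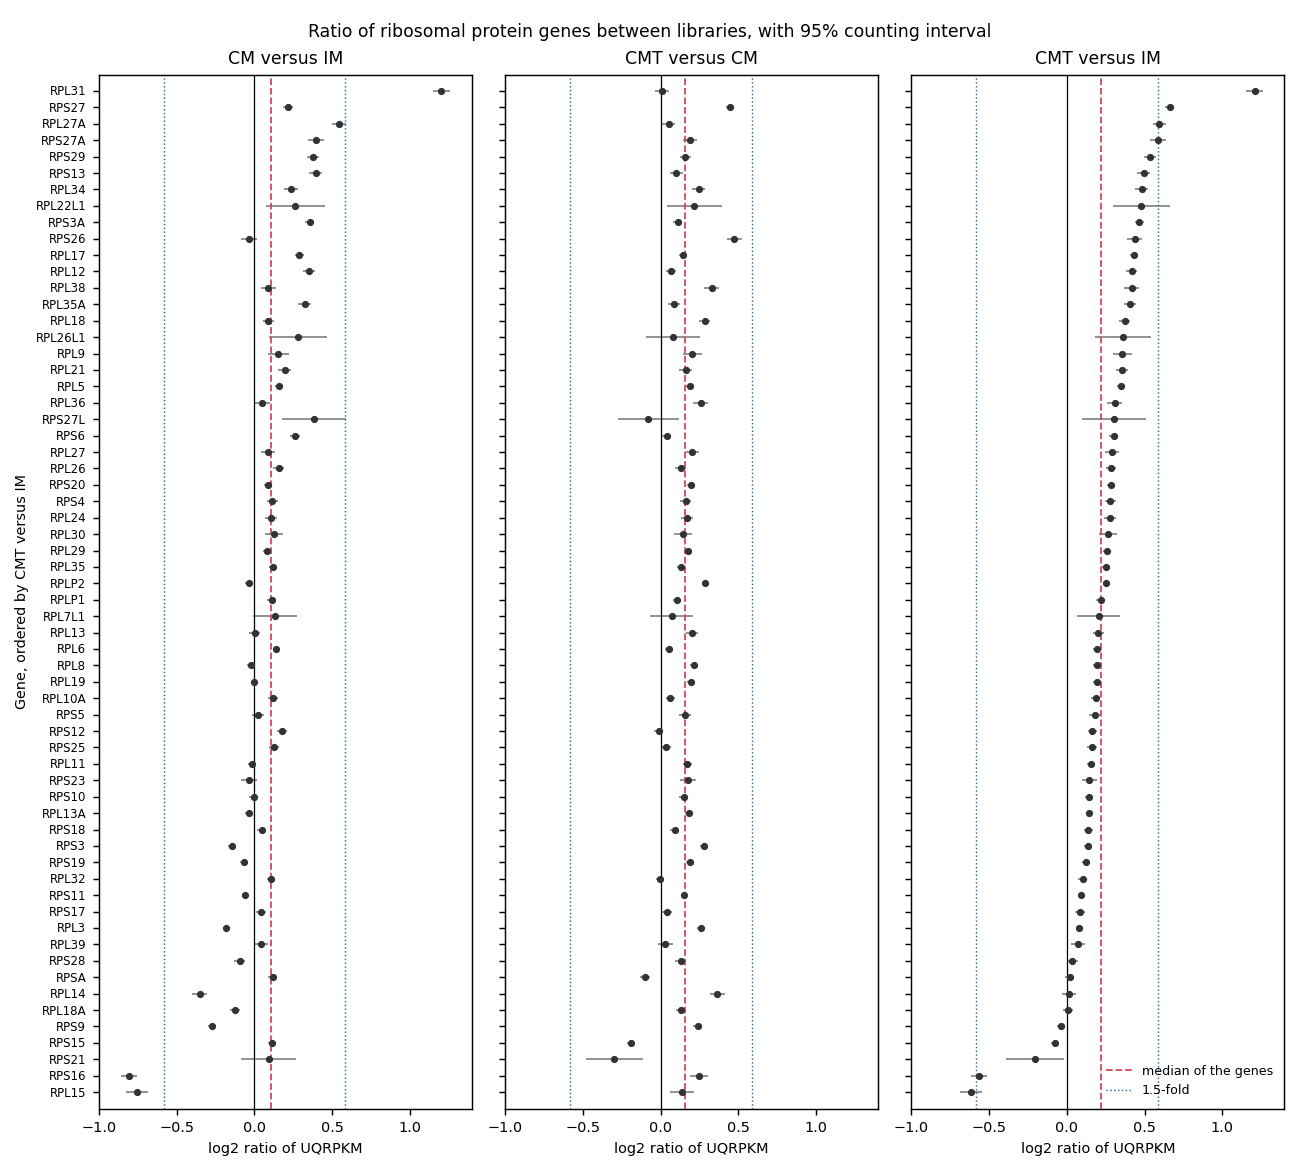
Log2 ratio of UQRPKM for 62 of the 63 genes in the 3 comparisons, CM/IM at the left, CMT/CM in the middle and CMT/IM at the right, ordered by the last, with 95% counting intervals (bars), the median of the set (dashed line) and 1.5-fold (dotted lines). The points cluster at medians of 0.11, 0.16 and 0.22, no point passes the dotted lines in CMT versus CM, and RPL31 at 1.20 and 1.21 lies apart in both comparisons with IM.

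The ratios of the set had a smaller spread than those of mRNA genes in general. The SD of the log2 ratio over the 63 genes was 0.27 for CM versus IM, 0.13 for CMT versus CM and 0.26 for CMT versus IM, where all tested mRNA genes had 0.63 to 0.67. Abundant genes have less counting error, so a closer standard is the other 724 mRNA genes with at least 1000 UQRPKM in every library. Their SD was 0.29, 0.31 and 0.32, against 0.25, 0.12 and 0.24 for the 57 ribosomal protein genes that meet the same limit. Of these 57 genes, 52, 56 and 52 lay within 0.32 of their own median on the log2 scale, or 91.2, 98.2 and 91.2%, against 80.5, 78.6 and 76.4% of the others. The medians of those others were -0.03, -0.06 and -0.10. In the same order, the SD was 0.21, 0.15 and 0.21 for proteasome genes and 0.21, 0.17 and 0.16 for ribosome biogenesis genes. For elongation factors it was 0.23, 0.22 and 0.11, and for initiation factors 0.31, 0.34 and 0.24. Genes that control TOP mRNAs had 0.22, 0.27 and 0.25, and mitochondrial ribosomal protein genes 0.29, 0.33 and 0.32. The ribosomal protein SD was below that of each of these lists only in CMT versus CM. These numbers are descriptions, since genes are not replicates of a condition.

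A few genes set much of the spread in the comparisons with IM. Without RPL31, RPS16 and RPL15, a choice made after their values were seen, the SD was 0.17 for CM versus IM, 0.13 for CMT versus CM and 0.17 for CMT versus IM, and the medians were 0.11, 0.16 and 0.23. Counting error was small beside these spreads. The counting interval had a median width of 0.07 in each comparison, and it included the median of the set for 19, 22 and 8 of the 63 genes. These are intervals of single genes with no allowance for their number, and the error between pigs and between library preparations has no measure here.

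**Figure D3:**
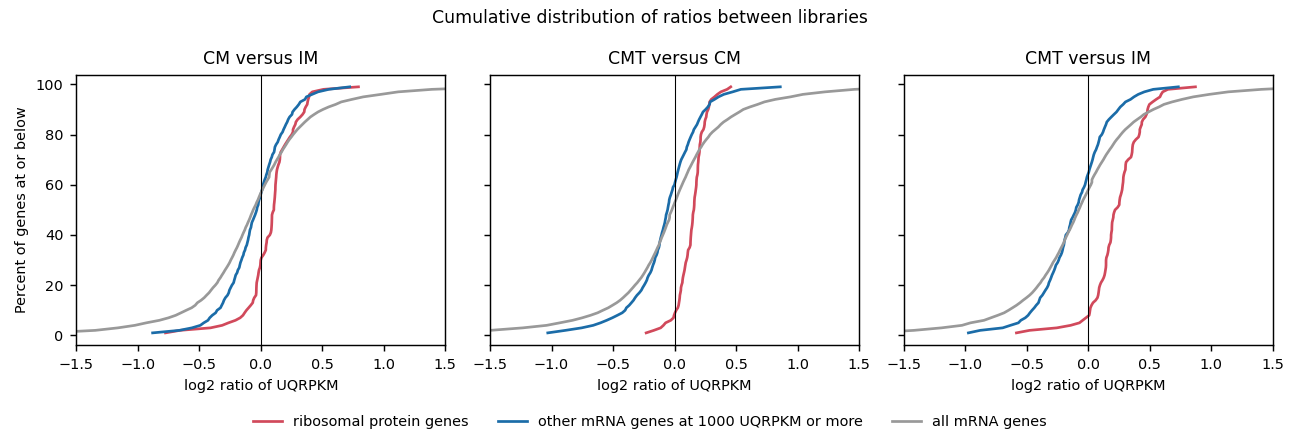
Cumulative percent of genes by log2 ratio of UQRPKM in the 3 comparisons, for the ribosomal protein genes, the other mRNA genes with at least 1000 UQRPKM and all mRNA genes. The ribosomal protein curve is steepest in CMT versus CM, where its SD is 0.13 against 0.31 for the other abundant genes, and it lies to the right of both other curves around the medians.

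The parts of the ribosome did not separate clearly. For RPL5 and RPL11, which enter the large subunit with its small RNA and can bind MDM2, the median log2 ratio was 0.07, 0.18 and 0.25 for CM/IM, CMT/CM and CMT/IM, the order kept below. The stalk genes RPLP1 and RPLP2 with RPL12 at the stalk base had 0.11, 0.11 and 0.25. The 6 tunnel exit genes had 0.14, 0.13 and 0.27, and the other large subunit genes 0.09, 0.18 and 0.26. In the small subunit, 12 body and platform genes had 0.10, 0.16 and 0.23, and 14 head genes 0.04, 0.15 and 0.14. The 4 paralogs above 0 had 0.27, 0.08 and 0.33, on 355 to 890 reads each. The difference between these groups was not tested.

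Ribosomal protein genes of mammals have many processed copies in the genome, and a read can fit more than one of them. Whether that occurred here was not tested, and how the authors counted reads that fit several places is not given in the sources used here. Of 8458 mRNA genes with only a locus name, 3840 had a RefSeq gene ID match, which named 8 of them as ribosomal protein genes. Another 9 were named by the annotation in the study's own list of changed genes, and they were thus chosen on these samples, so their ratios are no independent evidence of a direction. Neither RPL31 nor RPL15 had a copy among these 17 genes.

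RPS16 had a copy, LOC100623279, that differed the other way. The copy was at 6247, 9974 and 12158 UQRPKM in IM, CM and CMT, with a log2 ratio of 0.68 for CM versus IM and 0.96 for CMT versus IM. Of the reads of the pair in IM, CM and CMT, RPS16 held 58.4, 33.4 and 32.8%. The reads of both together numbered 13832, 13152 and 16326, a scaled log2 ratio of -0.00 (-0.04 to 0.03) for CM versus IM and 0.27 (0.24 to 0.30) for CMT versus IM. The sum thus showed no lower value in either castrated library, unlike RPS16 by itself.

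For RPL27A the copies were lower where the gene was higher. The larger one, LOC100739437, was at 2180, 1374 and 1533 UQRPKM, with log2 ratios of -0.67 for CM versus IM and -0.51 for CMT versus IM. RPL27A held 57.1, 75.5 and 74.2% of the reads of the gene and 2 copies, and the sum had a log2 ratio of 0.14 (0.11 to 0.18) for CM versus IM and 0.22 (0.19 to 0.25) for CMT versus IM, close to the medians of the set. RPL18, a large subunit protein at 10670, 11361 and 13818 UQRPKM, was joined by LOC100738912 at 7545, 4729 and 3546. The log2 ratio of that copy was -1.09 (-1.15 to -1.03) for CMT versus IM, that of RPL18 itself 0.37 (0.34 to 0.41), and that of their summed reads -0.02 (-0.05 to 0.01).

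**Figure D4:**
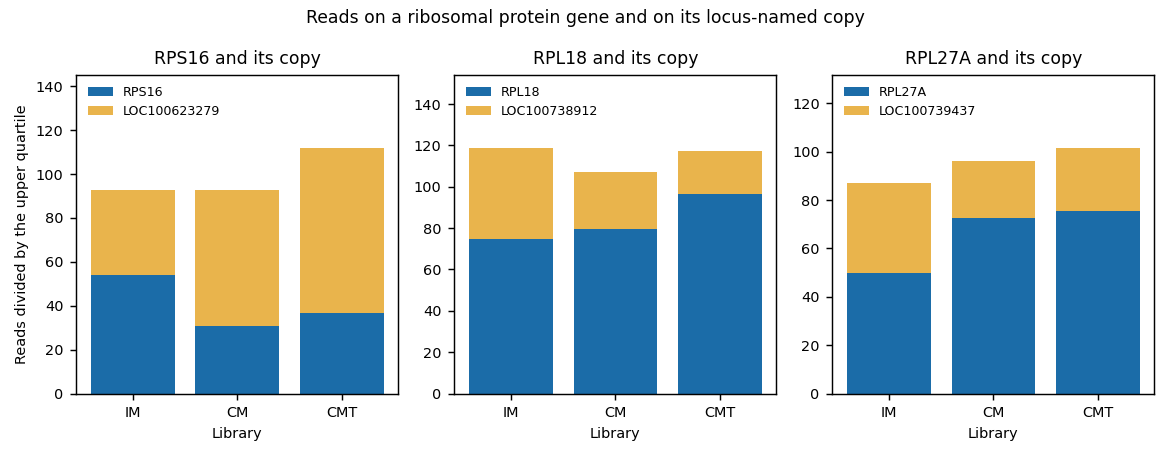
Reads, scaled by each library's upper quartile, for RPS16, RPL18 and RPL27A (lower bars) and on the largest copy of each under a locus name (upper bars) in the IM, CM and CMT libraries. The share of the named gene differs between libraries, from 58.4% in IM to 32.8% in CMT for RPS16 and from 62.9% to 82.4% for RPL18, while the height of the stacked bars differs less.

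RPL23A is known here only by its locus name, LOC100514795, and had a larger CMT to IM ratio than any gene found by the rule. It had 3621, 7792 and 10274 reads in IM, CM and CMT, with a log2 ratio of 1.18 (1.12 to 1.23) for CM versus IM, 0.36 (0.32 to 0.40) for CMT versus CM and 1.53 (1.48 to 1.59) for CMT versus IM. LOC100623428, annotated as RPL36A-like, was at 453, 840 and 676 UQRPKM, while RPL36A was listed at 0. With these 17 genes added, the set held 7.26, 7.93 and 9.16% of mRNA reads in IM, CM and CMT.

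Genes that act with the ribosome were compared as lists. The 6 elongation factor genes found had medians of -0.00, 0.18 and 0.20 on the log2 scale for CM/IM, CMT/CM and CMT/IM. EEF1A1, which brings aminoacyl-tRNA to the ribosome, was above every ribosomal protein gene at 74315, 76792 and 83815 UQRPKM. No elongation gene reached 1.5-fold in any comparison, where 18.8, 19.5 and 20.7% of all tested genes did in either direction. The 23 initiation factor genes above 0 had medians of 0.05, 0.02 and 0.03. Of them 1 was called higher in CM than in IM (background 8.38%) and 2 lower in CMT than in CM (background 9.97%). There were 0 calls in the opposite direction of these comparisons and 0 either way in CMT versus IM. In either direction, 18.8, 19.5 and 20.7% of all tested genes were called. The gene that was higher in CM was EIF2S2, a subunit of the factor that carries the initiator tRNA, at 57.2, 138.7 and 57.1 UQRPKM, and it was also among those lower in CMT, with EIF4A1, an RNA helicase, at 771, 1055 and 672.

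The 17 ribosome biogenesis genes above 0, among them FBL, NCL and NPM1, had medians of -0.00, -0.04 and 0.01. None was called in any comparison, where 18.8, 19.5 and 20.7% of all tested genes were in either direction. The 8 genes that control TOP mRNAs, with MTOR and LARP1 among them, had medians of -0.20, -0.07 and -0.19 and likewise none called. MTOR was at 170, 144 and 138 UQRPKM and LARP1, which binds TOP mRNAs, at 290, 234 and 208. The list was not uniform, as EIF4EBP1 was at 2777, 2358 and 3178 UQRPKM and EIF4EBP2 at 878, 785 and 999, both highest in CMT. Of the 8 ratios, 2, 3 and 3 were above 0. BTF3, which meets new chains as they leave the tunnel, was at 2253, 2546 and 2740 UQRPKM. The median of the mitochondrial ribosomal protein genes was 0.09, -0.02 and 0.03 over 59 genes, of which 2, 3 and 4 were called in either direction against 18.8, 19.5 and 20.7% of all tested genes, and their median level was 341, 377 and 378 UQRPKM. The 36 proteasome genes tested had medians of 0.01, -0.04 and 0.01, with 0, 0 and 1 called. The ribosomal protein medians of 0.11, 0.16 and 0.22 were above those of these 6 lists in CM versus IM and CMT versus IM. In CMT versus CM the median was above those of all but the elongation factors. The lead depended on the paralogs. Without them the ribosomal protein median for CM versus IM was 0.091, level with the mitochondrial ribosomal one of 0.091. For CMT versus IM it was then 0.203, against 0.195 for elongation factors. BTF3, the only gene found of its list, had log2 ratios of 0.18, 0.11 and 0.28.

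**Figure D5:**
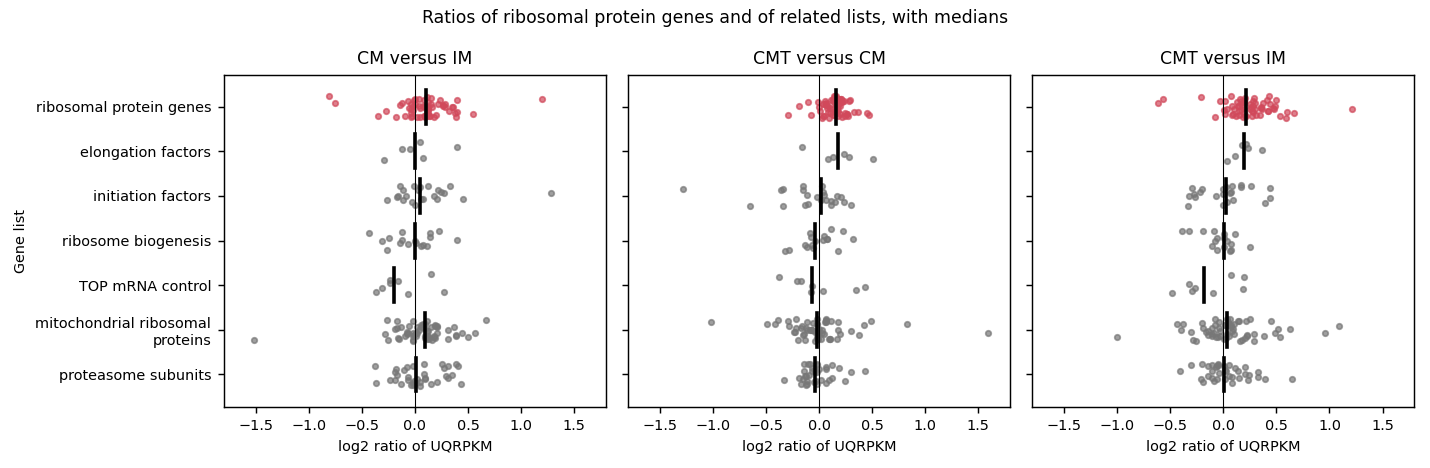
Log2 ratio of UQRPKM of single genes (points) and the median (bars) of the ribosomal protein genes and of 6 related lists in the 3 comparisons, with a random vertical offset for legibility. In CMT versus CM the ribosomal protein genes and elongation factors have medians of 0.16 and 0.18, and the medians of the other 5 lists lie between -0.07 and 0.02.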

How the data were processed

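RNA-Seq was carried out on 3 libraries of pooled visceral fat RNA, 1 per group (IM, CM, CMT), made with an Ion Total RNA-Seq kit. Per the methods of the study, the authors removed adaptors and low-quality reads, mapped to the pig genome (Sscrofa10.2) with MapSplice and deposited RPKM values scaled by the upper quartile (UQRPKM). The counting tool, its annotation and the treatment of reads that fit several places are not given in the sources used here. All columns of values were mapped to a sample by its label.

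Whole reads were recovered from the deposited values, as reads times 100000 divided by the upper quartile and the gene length. The upper quartiles were 149, 142 and 146 in IM, CM and CMT, and 20838 of 20838 genes above 0 gave whole reads within a relative tolerance of 2e-08. The length taken was the shortest that fits, so reads of some genes can be too low by a common factor. That widens their intervals and can shift shares and sums of reads, but not shares of summed UQRPKM. The step was checked on simulated data. Locus names were matched to RefSeq gene IDs in a table of another assembly, for names only.

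Ratios were taken on log2 UQRPKM with no pseudocount, and a gene was called at 1.5-fold with at least 1 UQRPKM in both libraries, the limits of the study without its test. With 1 library per group no test was run. Exact Clopper-Pearson 95% intervals on recovered reads cover counting error only. Named genes were those called, those at 0, the 5 highest and 5 lowest by mean, paralog pairs, the 5 farthest from the set's median in each comparison, ribosome parts outside the rule and locus-named copies. Some genes that this rule names are not reported here and are left out of the figures that label genes. Genes of the related lists, RPL10A, RPL5, RPL11 and RPL12 were named as examples. The genes and lists were chosen with earlier results of these data known. Alternatives were other scalings, a pseudocount of 1, other minimums, other folds, other denominators, leaving out paralogs, and, added after seeing the data, leaving out 3 genes and adding reads of copies. The study's own fold changes and p-values were not used. Python 3.11.15, numpy 2.4.6, pandas 2.3.3, scipy 1.17.1 and matplotlib 3.10.9 were used.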

Additional observations from a re-analysis of the deposited data

How the results depend on the processing

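With 1 library per group, no library could be left out and the spread between pigs has no measure. No paired analysis was possible because each group has 1 pooled library. Other scalings moved the medians. By total UQRPKM they were 0.13, 0.18 and 0.26 for CM/IM, CMT/CM and CMT/IM, with 0 genes lower at 1.5-fold in CMT than in IM. By total mRNA reads they were 0.16, 0.21 and 0.33, with 2 genes higher for CM/IM and, for CMT/IM, 8 higher and 0 lower. The share of all tested genes under these scalings is not given. Without the restricted paralogs the medians were 0.091 for CM versus IM and 0.20 for CMT versus IM. At a log2 ratio of 0.32, 9 genes were higher and 3 lower for CM/IM, 4 and 0 for CMT/CM and 19 and 2 for CMT/IM, where of all tested mRNA genes 16.7, 18.4 and 17.1% were higher and 3322 of 14123, 2819 of 14098 and 3669 of 14151 lower. At 2-fold, 1 gene was higher and 0 were lower for CM/IM and also for CMT/IM, where 3.86 and 4.21% and 3.96 and 4.25% of all were. Without RPL31, RPS16 and RPL15, a choice made after seeing the data, the CMT versus IM median was 0.23 and the CM versus IM SD 0.17. The counts were then 0 higher and 0 lower for CM/IM and 0 lower for CMT/IM. These counts follow from the choice, since the genes left out were the only ones called there. The share in IM, CM and CMT was 15.3, 16.4 and 18.5% of total UQRPKM, 5.82, 6.17 and 7.27% of reads on all gene types, 6.75, 7.31 and 8.42% with ribosome parts outside the rule added, 7.18, 7.84 and 9.04% with genes named by RefSeq gene ID and 7.26, 7.93 and 9.16% with all copies. Its order was the same each time, and no median changed sign. A pseudocount of 1 and minimums of 0 or 100 UQRPKM moved no median or count of the set beyond the limits used. Adding the reads of copies, also chosen after seeing the data, moved the values of RPS16, RPL27A and RPL18 as given above.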
